A study of Rattus norvegicus with 9 samples.

Results

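The genes described here encode 38 factors of blood coagulation and complement, of which 20 act in coagulation, its inhibition or fibrinolysis and 18 in complement. They were chosen by name. A gene was taken up where a probe set of the rat array carried exactly its symbol, and the brightest probe set stood for the gene. This gave 32 of the 38 genes (16 of each kind), out of 14217 genes with a probe set of their own, and all 32 were bright enough to be tested, past a filter set at the 40th percentile of mean signal, as were 10432 genes in all. F7, F11, F13b, Kng1, C2 and Cfb were not analysed here, because they had no probe set with a single symbol.

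Liver RNA came from 9 Wistar rats of 180 to 220 g, all labelled male, with 3 arrays in each of 3 groups. The study held 36 rats, 12 in a control group, 12 in a model group and 12 in a drug group that received 7-P, and the arrayed rats were drawn at random. The labels used here do not state the treatment behind the model group, whether the drug group had it too, or the ages. Values are log2 signals after quantile normalization, which gives every array the same distribution, and the number of arrays limits their precision.

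Coagulation is a chain of proteases, made in the liver as inactive zymogens, that ends in thrombin cutting fibrinogen. Serpins, which trap and inactivate proteases, hold the chain in check, and plasmin dissolves the clot. Complement is a second protease cascade of plasma, started by antibody, by sugars on microbes or by spontaneous activation of C3, and it ends with a pore built from the terminal components C5 to C9. Hepatocytes are the main source of most of these proteins, while C1r, C1s, factor D and the C1 inhibitor are also made by other cells.

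The mean signal before normalization, with 2% trimmed from each end, lay between 33.2 and 80.4. The Gapdh 3' to 5' signal ratio, used to read RNA quality (a higher ratio means less signal from the 5' end), was 1.52 to 3.14 in the control arrays, 4.09 to 12.7 in the model arrays and 1.31, 9.20 and 8.71 in drug 1, 2 and 3. All model Gapdh ratios thus lay above all control ratios. The same ratio for beta-actin was 4.23, 8.41 and 7.59 in control 1, 2 and 3, and 12.8, 10.7 and 7.31 in model 1, 2 and 3. It was 3.99, 11.5 and 8.63 in drug 1, 2 and 3, and here model and control overlapped. A fit with a term for the Gapdh ratio, given below as the Gapdh term, cannot fully separate that ratio from the difference between model and control. The arrays did not all match the male label. Xist, the RNA that silences an X chromosome and is made in females, was high on 7 arrays, between 8.06 and 10.89, and low only in control 2 and drug 3, at 2.65 and 3.05. Those 2 arrays also stood alone in the male-specific hydroxylase Cyp2c11, with 11.28 and 12.11 against 2.87 to 5.22 elsewhere, and in the Y-linked Eif2s3y, with 6.99 and 7.17 against at most 2.53. So 7 of 9 arrays went against their label, no model array held the male pattern, and results are given with and without the 2 arrays apart. The liver label held, since albumin was between 12.72 and 12.95 on all 9 arrays. In the model arrays 8 of 10 macrophage and Kupffer cell markers were higher than in control, with a median of 0.88 (log2). Their summed normalized signal was 1317 to 1928 in control, 1828 to 2920 in model and 1739 to 2103 in drug arrays, and all 10 on the array passed the filter. Of 10 hepatocyte markers 3 were higher in model, with a median of -0.12. In bulk liver fewer cells of a type and less RNA per cell cannot be told apart.

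No probe set of the array passed a limma Benjamini-Hochberg adjusted p under 0.05 in any comparison (0% of 18625 called), so none of the 32 genes did. The unadjusted p was under 0.05 for 2245 probe sets (12.1%) between model and control, for 610 (3.28%) between drug and model and for 1345 (7.22%) between drug and control. The 32 genes are therefore described by their values and by counts set beside the same counts over all 10432 genes. Differences are on the log2 scale, each with its standard error (SE) from limma.

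In model against control livers the members split. C5, C9 and C8a of the terminal pathway, the classical protease C1s, plasma prekallikrein (Klkb1) and factor V (F5) had all 3 model values above all 3 control values, while the serpin kallistatin (Serpina4) and histidine-rich glycoprotein (Hrg) had all 3 below. Of these, C8a, C1s, Klkb1 and F5 turned lower in model without normalization between arrays, and the others kept their direction under every scaling tried. Of the 32 genes 18 were higher (51.1% of all genes were) and 14 lower (48.9% of all genes), with a median of 0.12 beside 0.01 over all genes. At an unadjusted p under 0.05 there were 6 higher members (18.8%), where 7.08% of all genes were called, and 2 lower members (6.25%), where 6.05% were. Groups did not overlap in 8 members higher in model (12.9% of all genes) and 2 lower (11.9% of all genes). The 8 are the 6 named above with Masp1 and Serpina5. Serpina5 passed the filter only with drug 3 included, and 31 genes were tested without that array. This split depended on the scaling. With each array centred on its median 2 higher and 8 lower members had no overlap (9.85% and 16.2% of all genes). Scaled to 1 trimmed mean there were 7 and 4 (17.3% and 9.76%), and without normalization 0 and 3 (1.06% and 12.4%). The median of all genes was then -0.10, 0.13 and -0.43. That of the members was -0.21, 0.02 and -0.54, below all genes each time. The unadjusted calls moved as well, to 0 higher and 4 lower with median centring (5.52% and 7.23% of all genes), 2 and 2 with the trimmed mean (9.54% and 5.18%), 0 and 3 without normalization (0.719% and 8.61%), and 2 and 1 with a term for the Gapdh ratio (4.16% and 4.58%). More higher than lower calls were thus seen with quantile normalization and not with the other scalings. Without control 2 and drug 3, 8 higher and 5 lower of the 31 genes tested had no overlap (17.5% and 16.4% of all genes). At an unadjusted p under 0.05 there were then 7 higher and 1 lower (4.25% and 2.63%), F2 no longer among them. Over 22 alternative settings, the unadjusted call in model against control was lost in 0 for Serpina4, 2 for C5, 4 for Klkb1, 6 for C1s, 9 for F2, 10 for C9, 10 for F5 and 12 for C8a.

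Of the 6 higher calls 4 were complement genes. Of its 16 genes 9 were higher (56.2%, all genes 51.1%), with a median of 0.36, and 4 were higher at an unadjusted p under 0.05 (25%, all genes 7.08%) and 0 lower (all genes 6.05%). Among the 16 coagulation genes 9 were higher too, the median was 0.07, and 2 were called in each direction (12.5% each). With median centring and without normalization no gene of either kind was called higher. The difference between coagulation and complement was not tested.

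**Figure D1:**
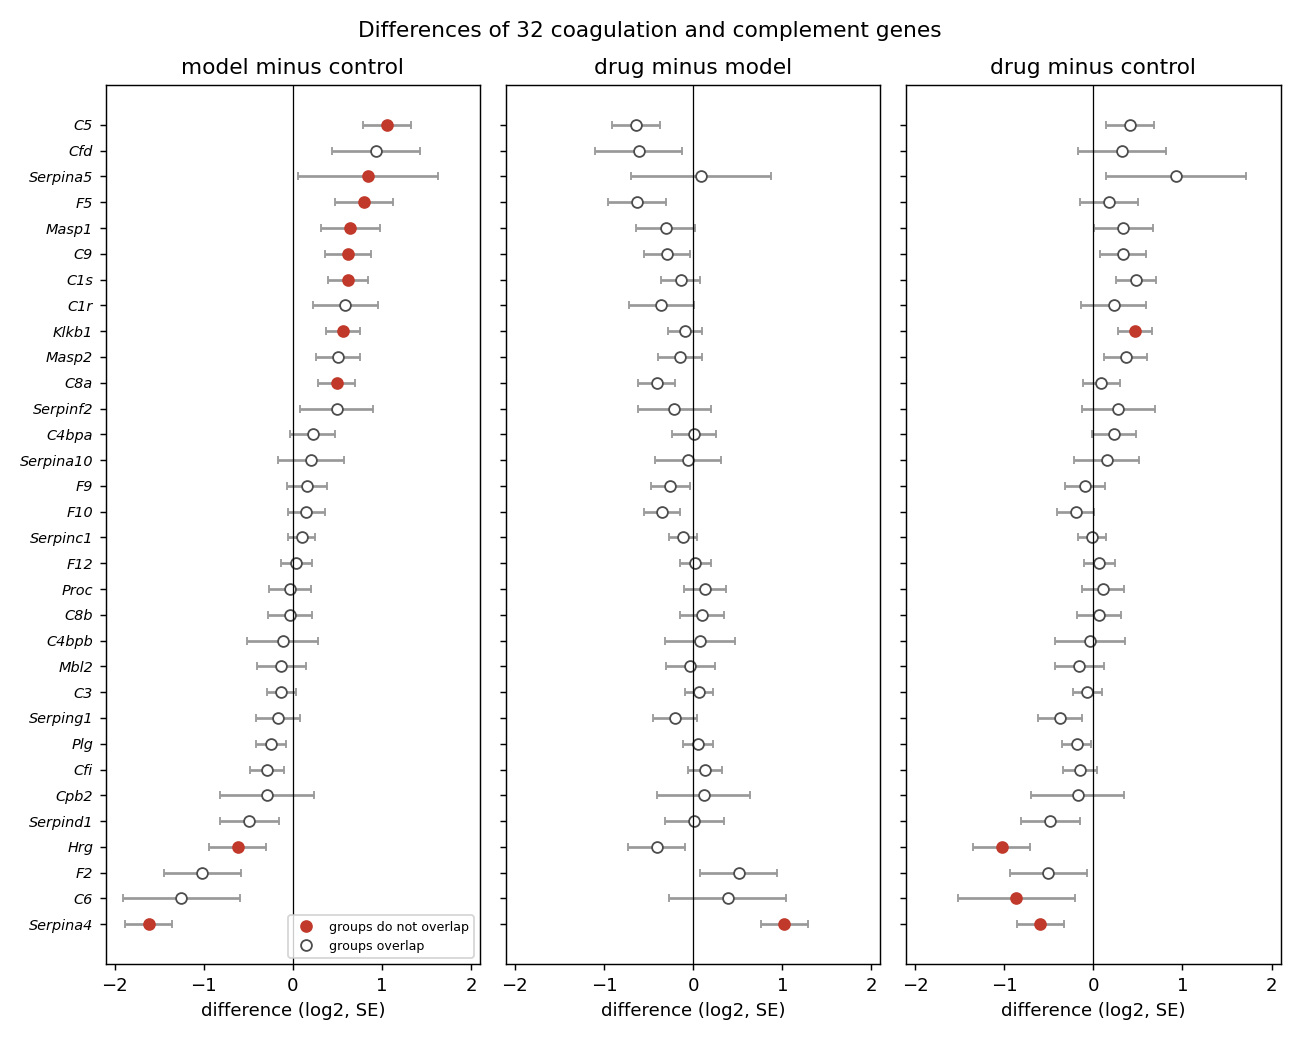
Log2 differences of the 32 genes in the 3 comparisons (x axis, with bars of 1 SE from the limma fit) with 1 row a gene, ordered by model minus control. Filled red points mark genes whose groups do not overlap, 10 in model minus control, 1 in drug minus model and 4 in drug minus control, and Serpina4 is the lowest gene on the left and the highest in the middle.

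Promoters of 4 of the genes the comparisons turn on are shown, because Serpina4, C5, C8a and F2 each hold the core motif GTTAAT of the hepatocyte factor HNF1 in the 250 bases before the RefSeq transcript start (build GRCr8). Each is printed 5' to 3' on the strand of the gene, with the matches to all 5 motifs searched in capitals.
Serpina4, chr6:128764532-128764781, plus strand: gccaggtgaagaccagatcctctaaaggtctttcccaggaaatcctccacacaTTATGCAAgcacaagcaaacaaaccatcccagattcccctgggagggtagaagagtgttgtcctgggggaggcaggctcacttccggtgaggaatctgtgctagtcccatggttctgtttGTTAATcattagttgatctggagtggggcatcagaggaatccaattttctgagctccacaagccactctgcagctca
C5, chr3:38759469-38759718, minus strand: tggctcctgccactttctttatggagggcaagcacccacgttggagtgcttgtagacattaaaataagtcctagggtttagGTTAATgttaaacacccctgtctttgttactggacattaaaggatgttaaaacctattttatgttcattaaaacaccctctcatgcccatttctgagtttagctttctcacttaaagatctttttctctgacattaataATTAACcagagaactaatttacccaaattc
C8a, chr5:124866632-124866881, minus strand: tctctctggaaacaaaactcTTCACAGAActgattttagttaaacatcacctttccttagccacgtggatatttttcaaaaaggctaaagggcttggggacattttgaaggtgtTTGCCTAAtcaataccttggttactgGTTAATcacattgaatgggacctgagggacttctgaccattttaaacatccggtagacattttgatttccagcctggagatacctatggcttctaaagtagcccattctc
F2, chr3:98065247-98065496, minus strand: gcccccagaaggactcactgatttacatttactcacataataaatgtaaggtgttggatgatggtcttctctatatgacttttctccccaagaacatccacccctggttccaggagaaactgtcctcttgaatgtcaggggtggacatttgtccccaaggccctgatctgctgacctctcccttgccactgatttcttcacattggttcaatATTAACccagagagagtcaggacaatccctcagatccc

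GTTAAT begins 77 bases before the start in Serpina4, 110 in C8a, 169 and 30 in C5, and 38 in F2, where it and the nearer copy in C5 lie on the opposite strand and read ATTAAC. Motifs were searched on both strands, and no matches in these 4 sequences overlapped. RefSeq promoter entries were found for 24 of the 32 genes. GTTAAT was in 8 of them (33.3%) and in 6.45% of 33469 promoter entries of the same length. The C/EBP-type motif TTGCNNAA was in 10 (41.7%, all promoters 9.22%), and Serpina4 and C8a hold it at 197 and 136 bases before the start. The STAT-type motif TTCNNNGAA was in 3 (12.5%, all 7.67%), one of them C8a. The HNF4 core motif CAAAGT was in 2 (8.33%, all 12.9%) and TATAAA in 0 (0%, all 12.9%). Of the other genes given below with all their values, Klkb1 and C6 held TTGCNNAA and F5, Cfi and F10 none of the 5 motifs. C1s, C9 and Hrg had no promoter entry and could not be read. A match is a run of letters, and binding was not measured.

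Serpina4 showed the smallest p-value of the 32 genes. It encodes kallistatin, a serpin that inhibits tissue kallikrein. Its log2 signal was 10.88, 10.93 and 11.40 in control 1, 2 and 3, 9.48, 9.71 and 9.16 in model 1, 2 and 3, and 10.65, 10.02 and 10.76 in drug 1, 2 and 3. The 3 groups did not overlap, with model lowest, drug between and control highest. The difference of model from control was -1.62 (SE 0.261), a level 3.07-fold lower, with a limma unadjusted p of 0.000101 and an adjusted p of 0.373. Drug livers were 1.02 (SE 0.261) above model livers, 2.03-fold, with a limma unadjusted p of 0.00284 and an adjusted p of 0.998. Against control the drug livers stood at -0.60 (limma adjusted p 0.683), and without drug 2 at -0.36. These comparisons share arrays and are not independent. With the Gapdh term the model difference was -1.56, and without control 2 and drug 3 it was -1.69.

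No other serpin of coagulation had all groups apart as Serpina4 did, though Serpind1 was also lower on average in model livers. Antithrombin (Serpinc1), the main inhibitor of thrombin and factor Xa, had the smallest spread inside groups of all 32 genes, an SD of 0.0816, and lay within 11.93 to 12.16 on the 9 arrays. Heparin cofactor II (Serpind1), another thrombin inhibitor, averaged 11.11 ± 0.384 in control, 10.62 ± 0.461 in model and 10.63 ± 0.528 in drug arrays (SD, n = 3). Its difference of model from control was -0.49 (limma adjusted p 0.532) and 0.10 with the Gapdh term. The protein Z-dependent inhibitor (Serpina10), which acts on factor Xa, was at 11.41 in model 1 and 10.10 and 9.87 in model 2 and 3, with controls at 10.12 to 10.36. The protein C inhibitor (Serpina5) was near background, at the 43.5th percentile of signal, with 3.28 to 3.31 in model and 1.98 to 2.81 in control arrays. Drug 3 stood at 5.28 and drug 1 at 1.84. Its model and control groups did not overlap, but its difference, 0.84, was -0.25 with the Gapdh term.

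The terminal complement genes held 3 of the higher members. C5 is the component whose cleavage starts the pore and releases the inflammatory peptide C5a. Its log2 signal was 9.82, 9.98 and 9.75 in control 1, 2 and 3, 11.21, 10.58 and 10.93 in model 1, 2 and 3, and 9.74, 10.71 and 10.34 in drug 1, 2 and 3. No model array reached down to the controls, while drug 1 was at the control level and drug 2 within the model range. The model difference was 1.05 (SE 0.27), 2.07-fold, with a limma unadjusted p of 0.00293 and an adjusted p of 0.384. Drug livers differed from model livers by -0.64 (SE 0.27; limma unadjusted p 0.0388, adjusted p 0.998), and by -0.39 without drug 1, and its unadjusted call was lost in 16 of 22 settings. C5 stayed higher in model under all 22 alternative settings, from 0.21 without normalization to 1.2 without model 2, though the unadjusted call was lost without normalization and with median centring (0.54).

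C9, which polymerizes to form the pore, was at 11.49, 12.29 and 11.79 in control 1, 2 and 3, 12.72, 12.36 and 12.36 in model 1, 2 and 3, and 11.79, 12.51 and 12.26 in drug 1, 2 and 3. All model arrays were above all control arrays, the nearest pair being model 3 and control 2 at 12.36 and 12.29. The difference was 0.62 (SE 0.259; limma adjusted p 0.407), and 0.35 with the Gapdh term, where the unadjusted call was lost. C8a, the alpha chain of C8 that inserts into the membrane, was at 10.51, 10.94 and 10.63 in control 1, 2 and 3, 11.40, 10.98 and 11.18 in model 1, 2 and 3, and 10.63, 11.02 and 10.68 in drug 1, 2 and 3. Its model difference was 0.49 (SE 0.208; limma adjusted p 0.407), or 0.43 with the Gapdh term and again no call, and its drug against model difference -0.41 (SE 0.208; limma adjusted p 0.998). Model and control did not overlap, with 10.98 in model 2 and 10.94 in control 2 the nearest pair, and drug 2 lay within the model range while the other drug arrays did not.

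C8b, the beta chain of the same complex, differed from control by only -0.03 (SE 0.25), with 11.16, 10.63 and 10.20 in the model arrays around controls of 10.56 to 10.89. C6, which joins C5b in the pore, was at 9.34, 8.81 and 8.90 in control 1, 2 and 3, 9.11, 8.35 and 5.84 in model 1, 2 and 3, and 8.30, 8.10 and 8.06 in drug 1, 2 and 3. Model 3 was far below the other 8 arrays, which lay between 8.06 and 9.34. The model difference of -1.25 (SE 0.659; limma adjusted p 0.45) was -0.29 without model 3, -1.93 without model 1 and -0.73 with the Gapdh term, and the drug against model difference of 0.39 turned to -0.58 without model 3. All 3 drug arrays lay below all 3 control arrays, with a difference of -0.86 (SE 0.659; limma adjusted p 0.752). That SE pools all 3 groups and so takes in model 3. Without model 3 the drug against control difference was -0.87 (SE 0.265; limma unadjusted p 0.00929, adjusted p 0.712).

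**Figure D2:**
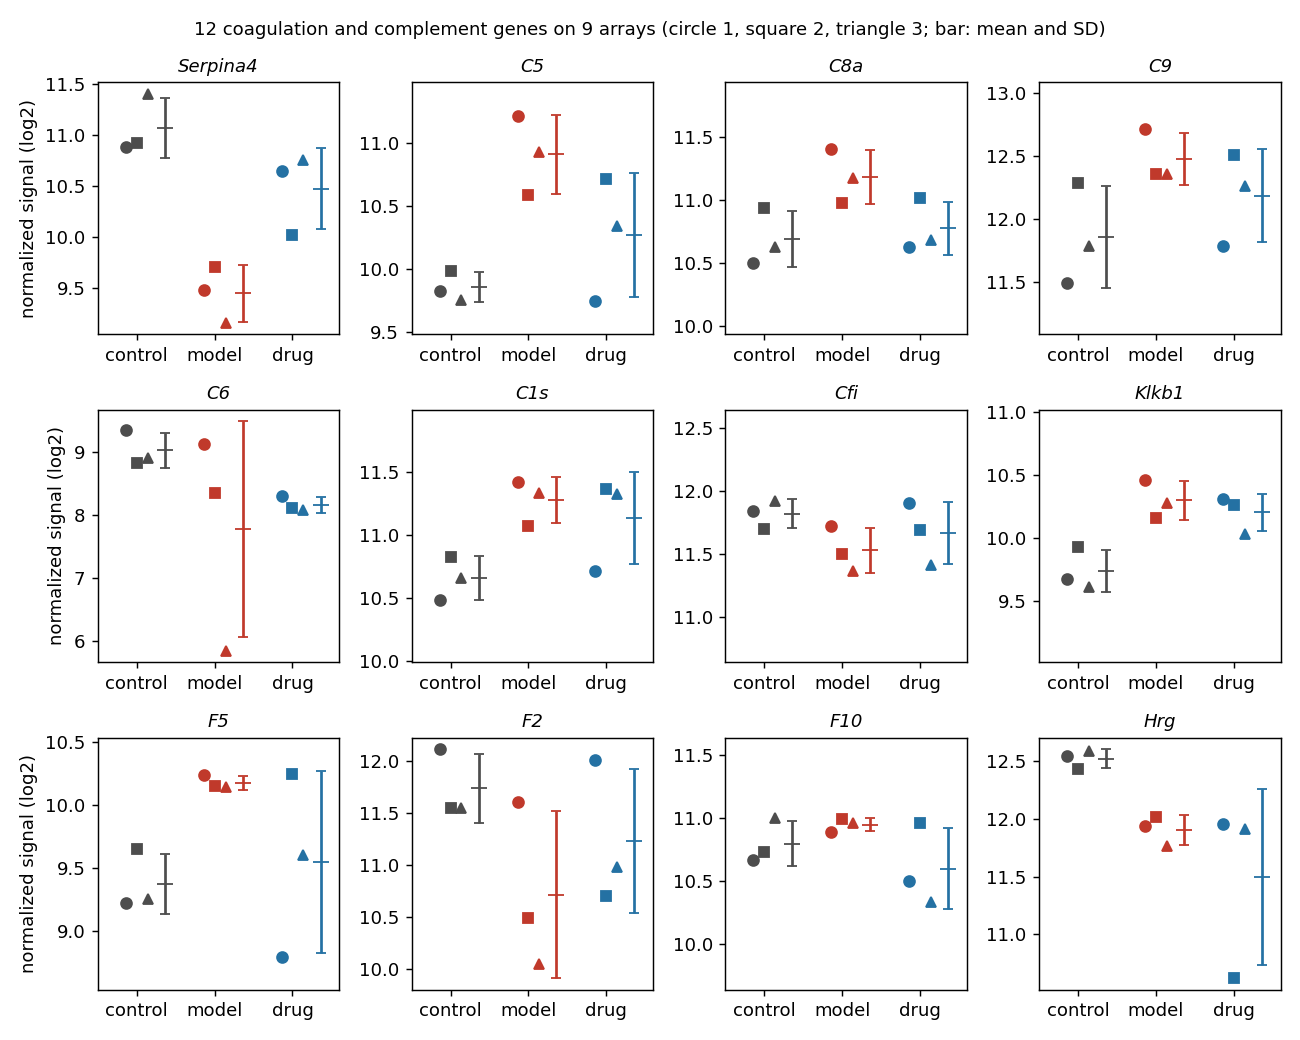
Normalized log2 signal (y axis, a panel a gene) on each array of the control, model and drug groups for the 12 genes taken by the naming rule. Circles, squares and triangles are arrays 1, 2 and 3, and the bar beside them is the mean with the SD (n = 3). The Serpina4 groups stand apart in the order model, drug, control, and the C6 mean in model is pulled down by 1 array at 5.84.

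In the classical and lectin pathways 4 of 5 measured genes were higher in model by their brightest probe sets. C1s is the protease of the C1 complex that cuts C4 and C2. Its log2 signal was 10.49, 10.83 and 10.66 in control 1, 2 and 3, 11.42, 11.07 and 11.33 in model 1, 2 and 3, and 10.71, 11.36 and 11.33 in drug 1, 2 and 3. Model lay above control without overlap, drug 1 was within the control range and drug 2 and 3 within the model range. The difference was 0.62 (SE 0.224), 1.54-fold, with a limma unadjusted p of 0.0199 and an adjusted p of 0.392. With the Gapdh term it was 0.36, and the unadjusted call was lost. C1r, the protease that activates C1s, was more scattered, at 9.51, 10.88 and 9.91 in control and 10.98, 10.14 and 10.94 in model arrays. Its difference of 0.59 (limma adjusted p 0.503) was 0.98 without control 2, 0.29 without control 1 and 0.36 with the Gapdh term.

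The lectin pathway genes gave readings that depended on the probe set. Masp1 and Masp2 encode the proteases bound to mannose-binding lectin, and Mbl2 encodes a form of that lectin. By their brightest probe sets, Masp1 differed by 0.65 without overlap (SE 0.329; limma adjusted p 0.441), Masp2 by 0.51 (SE 0.245; limma adjusted p 0.426) and Mbl2 by -0.13 (SE 0.273; limma adjusted p 0.85). A further probe set of each gene read lower in model, by -2.13 for Masp1, -1.59 for Masp2 and -1.55 for Mbl2. These 3 probe sets were highest on the arrays with the lowest Gapdh ratio. The lower Masp1 probe set was at 5.53 in control 1 and 5.58 in drug 1, beside 1.25 in model 2 and 1.11 in model 3. That of Mbl2 was at 8.75, 8.94, 6.42 and 6.07 on these 4 arrays. The remaining probe sets of Masp1 and Masp2 were higher in model by 0.43 and 0.89. With the Gapdh term the brightest probe sets gave 0.09 for Masp1, 0.55 for Masp2 and -0.15 for Mbl2. The counts by direction above use the brightest probe sets, and since those and the lower ones disagree for Masp1 and Masp2, the direction of these genes is not settled. The other 29 genes had 1 probe set each, so no such comparison could be made for them.

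**Figure D3:**
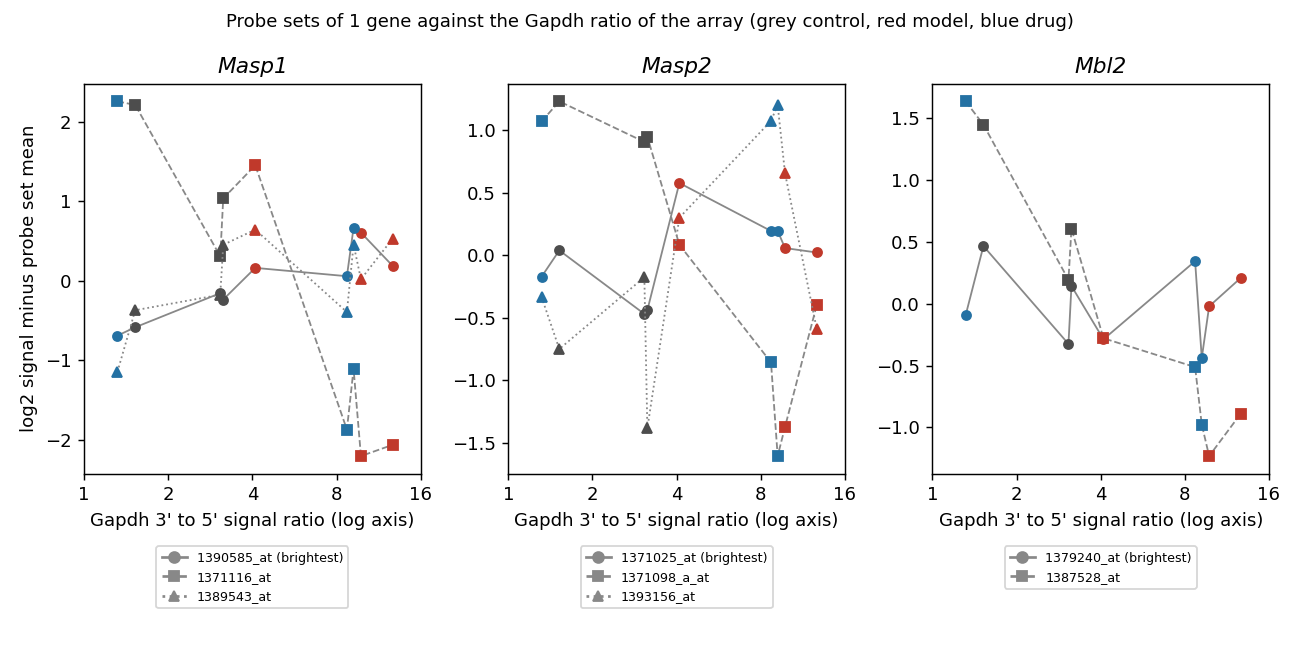
Log2 signal of each probe set of Masp1, Masp2 and Mbl2, minus its mean over the 9 arrays (y axis), against the Gapdh 3' to 5' signal ratio of the array (x axis, log scale), coloured by group. Lines only join the points of 1 probe set. In each gene the probe set drawn with squares and a dashed line is highest on drug 1 and control 1, at ratios of 1.31 and 1.52, and low on the arrays above 8.

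C3 and factor D belong to the alternative pathway. C3, on which all pathways converge, lay within 12.57 to 12.90 on the 9 arrays, with a model difference of -0.13 (SE 0.161). Factor D (Cfd), the protease that cuts factor B and is known mainly from fat tissue, lay within 4.34 to 7.04 on the 9 arrays, with control 2 lowest and model 2 highest. Its difference of 0.93 (SE 0.493; limma adjusted p 0.45) was 0.41 without control 2 and 0.58 without model 2.

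In none of the 4 complement inhibitors were model and control apart without overlap. Factor I (Cfi), which degrades C3b and C4b, was at 11.84, 11.70 and 11.93 in control 1, 2 and 3, 11.72, 11.50 and 11.37 in model 1, 2 and 3, and 11.90, 11.69 and 11.41 in drug 1, 2 and 3. Its model range reached into the control range at model 1, and the difference was -0.29 (SE 0.192; limma adjusted p 0.524), with 0.14 (SE 0.192) for drug against model. The C1 inhibitor (Serping1), a serpin of both cascades, had model values of 11.84, 11.29 and 10.98 beside controls of 11.37 to 11.79. C4bpa and C4bpb, the chains of the C4b-binding protein, differed by 0.22 (SE 0.251) and -0.12 (SE 0.395). Both had their highest value in model 1, 11.93 and 11.005.

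Among the vitamin K-dependent proteases, F2 stood apart. F2 encodes prothrombin, the precursor of thrombin. Its log2 signal was 12.11, 11.54 and 11.54 in control 1, 2 and 3, 11.61, 10.49 and 10.05 in model 1, 2 and 3, and 12.01, 10.70 and 10.98 in drug 1, 2 and 3. Model 2 and 3 were below every control array, while model 1 was within the control range, and drug 2 and 3 were low as well. The difference was -1.02 (SE 0.432), 2.02-fold lower, with a limma unadjusted p of 0.0403 and an adjusted p of 0.409. The arrays with a Gapdh ratio above 8 were the 4 lowest in F2. With the Gapdh term the difference was -0.14 and the unadjusted call was lost, but ratio and group cannot be fully separated in this comparison.

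The other vitamin K-dependent genes were closer together. F10, whose product converts prothrombin to thrombin, was at 10.66, 10.73 and 10.997 in control 1, 2 and 3, 10.89, 10.99 and 10.96 in model 1, 2 and 3, and 10.50, 10.96 and 10.34 in drug 1, 2 and 3. The model arrays lay inside the control range, and the drug against model difference was -0.35 (SE 0.207; limma adjusted p 0.998), with drug 2 at the model level. F9, the factor missing in haemophilia B, lay within 10.80 to 11.62 on the 9 arrays, with a model difference of 0.16 (SE 0.222). Protein C (Proc), the protease that inactivates factors V and VIII, lay within 10.03 to 10.79, with a model difference of -0.03 (SE 0.235).

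Factor V (F5) is the cofactor of factor Xa. Its log2 signal was 9.22, 9.65 and 9.25 in control 1, 2 and 3, 10.24, 10.15 and 10.14 in model 1, 2 and 3, and 8.80, 10.24 and 9.60 in drug 1, 2 and 3. The model arrays lay close together and above all controls, while the drug arrays spread from below the controls to the level of the model arrays. The model difference was 0.80 (SE 0.324), 1.74-fold, with a limma unadjusted p of 0.0332 and an adjusted p of 0.401, and 0.29 with the Gapdh term, where the unadjusted call was lost. Drug against model gave -0.63 (SE 0.324; limma adjusted p 0.998), -0.25 without drug 1 and -0.97 without drug 2.

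Of the contact system, which starts coagulation on surfaces and releases bradykinin, Klkb1 was higher in both other groups than in control. It encodes prekallikrein, and its log2 signal was 9.68, 9.93 and 9.61 in control 1, 2 and 3, 10.47, 10.16 and 10.28 in model 1, 2 and 3, and 10.31, 10.27 and 10.04 in drug 1, 2 and 3. All model and all drug arrays lay above all control arrays, and model and drug overlapped. The difference was 0.56 (SE 0.19; limma adjusted p 0.384) in model and 0.46 (SE 0.19; limma adjusted p 0.683) in drug livers, comparisons that share the control arrays. With the Gapdh term the model difference was 0.67. Factor XII (F12), which activates prekallikrein, lay within 10.45 to 10.71 on the 9 arrays, with a model difference of 0.04 (SE 0.173).

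In fibrinolysis Hrg was the gene set apart. It encodes histidine-rich glycoprotein, a plasma protein that binds plasminogen and heparin. Its log2 signal was 12.55, 12.43 and 12.59 in control 1, 2 and 3, 11.94, 12.02 and 11.77 in model 1, 2 and 3, and 11.96, 10.62 and 11.92 in drug 1, 2 and 3. All model and all drug arrays were below all control arrays, and drug 2 was the lowest. The difference was -0.62 (SE 0.32; limma adjusted p 0.446) in model livers. In drug livers it was -1.03 (SE 0.32; limma unadjusted p 0.00936, adjusted p 0.677), and -0.55 without drug 2. The SE pools all 3 groups and so takes in drug 2. In a fit of the model and control arrays alone, the model difference was -0.59 (SE 0.175; limma unadjusted p 0.00853, adjusted p 0.212). With the Gapdh term the model difference was -0.30. Drug against model gave -0.41, and 0.03 without drug 2.

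Plasminogen (Plg), the precursor of plasmin, lay within 11.69 to 12.15 on the 9 arrays. Its model difference was -0.25 (SE 0.167; limma adjusted p 0.533). Antiplasmin (Serpinf2) was lowest in drug 1 and control 1, at 9.72 and 10.12, and between 10.54 and 11.33 elsewhere. Its model difference of 0.49 was -0.42 with the Gapdh term. Cpb2, which encodes the carboxypeptidase TAFI that slows fibrinolysis, was at 11.13 in model 1 and 9.04 and 8.77 in model 2 and 3, with controls of 9.87 to 9.99. The model arrays thus lay on both sides of the controls.

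The model rats differed from each other. Model 1 held the highest value of 13 of the 32 genes and the lowest of 0, and model 3 held the lowest of 11 and the highest of 3. The median deviation of the 32 genes from their 9-array means was 0.32 in model 1 and between -0.09 and 0.11 on the other arrays. Acute-phase transcripts, chosen after their values were seen, stood out on the same array. A2m, alpha-2-macroglobulin, the classic acute-phase protein of the rat, was at 11.03 in model 1 and at most 6.07 elsewhere, and Lbp, the lipopolysaccharide-binding protein, was at 11.62 in model 1 and at most 10.64 elsewhere. Model 1 also had the lowest Gapdh ratio of its group, but the highest beta-actin 3' to 5' ratio of all 9 arrays, 12.8. Without model 1, members without overlap numbered 10 higher and 12 lower in model against control, where 23.8% and 22.3% of all genes had none, since 2 arrays overlap less often than 3. Those at an unadjusted p under 0.05 numbered 2 higher and 4 lower (8% and 9.04% of all genes). Without control 3 the latter were 2 higher and 1 lower (6.09% and 4.04% of all genes), without control 1 they were 3 and 1 (5.23% and 3.48%), without model 2 they were 4 and 1 (4.92% and 4.43%), and without model 3 they were 4 and 1 (3.71% and 2.81%).

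**Figure D4:**
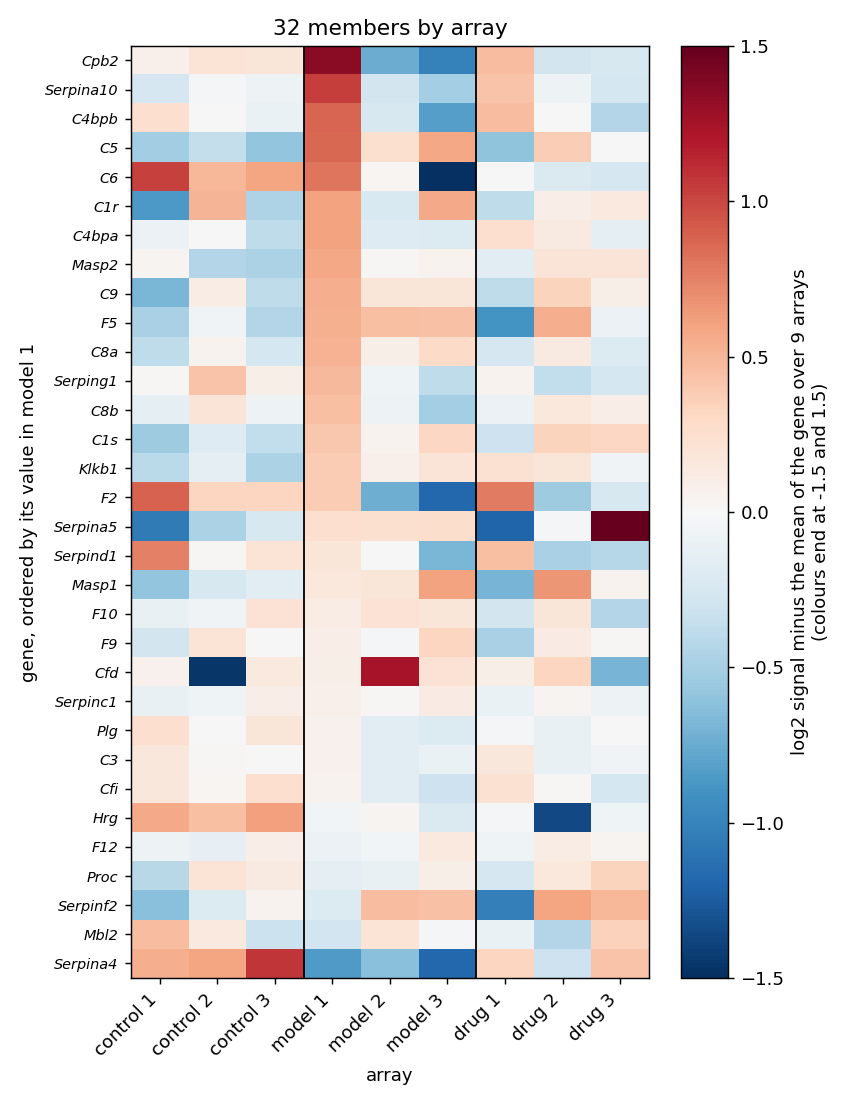
Log2 signal of the 32 genes (rows, ordered by their value in model 1) on the 9 arrays (columns), as the difference from the mean of the gene over the arrays. Model 1 is red in the upper rows, from Cpb2 to F2, model 3 is blue in Cpb2, C4bpb, C6 and F2, and the Serpina4 row is blue in all model arrays. Colours end at 1.5 in either direction.

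In drug against model livers 14 of the 32 genes were higher (47.1% of all genes) and 18 lower (52.9% of all genes), with a median of -0.08 beside -0.03 over all genes. At an unadjusted p under 0.05 there was 1 higher member, Serpina4 (3.12%, all genes 1.46%), and 1 lower, C5 (3.12%, all genes 1.98%). Groups did not overlap in Serpina4 alone (all genes 3.36% higher), with 0 members lower (all genes 5.05%). Counts of this size give no reading beyond these genes. Without drug 2, 8 lower members had no overlap (11% of all genes) and 4 were lower at an unadjusted p under 0.05 (3.28%). Without model 1, 6 higher members had none (9.28% of all genes) and 3 were higher at an unadjusted p under 0.05 (2.53%). Without model 2, 4 lower members had no overlap (7.75% of all genes), and without drug 1, 3 higher (9.4%). Without control 2 and drug 3, Serpina4 alone stood apart and had an unadjusted p under 0.05, at 0.89. For 17 of the 32 genes the difference was smaller than 0.2.

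In drug against control livers 17 genes were higher (47.8% of all genes) and 15 lower (52.2% of all genes), with a median of 0.07 beside -0.03 over all genes. At an unadjusted p under 0.05 there were 1 higher member, Klkb1 (3.12%, all genes 4.6%), and 2 lower, Hrg and Serpina4 (6.25%, all genes 3.58%). Groups did not overlap in 1 higher member (all genes 6.51%) and 3 lower, Hrg, Serpina4 and C6 (all genes 7.72%). The call was lost in 10 of 22 settings for Klkb1, which stood at -0.19 without normalization, in 11 of 22 for Serpina4, the replicate block and the Gapdh term among them, and in 0 for Hrg. Without drug 1 the members without overlap numbered 7 higher and 9 lower, where 21.8% and 22.9% of all genes had none, and 5 were higher and 3 lower at an unadjusted p under 0.05, where 10.3% and 10.7% of all genes were. The shares of all genes grew in that setting too. With each array centred on its median, or scaled to 1 trimmed mean, 0 higher and 6 lower members had no overlap (6.97% and 6.51% of all genes, and 7.76% and 6%). Without control 2 and drug 3, 6 higher and 4 lower of the 31 genes tested had none (13.2% and 15.2% of all genes). Klkb1 then stood at 0.64, Hrg at -1.27 and Serpina4 at -0.80.

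The rest of both cascades was read from lists of other genes. Of 22 tested coagulation and fibrinolysis genes outside the 32, 12 were higher and 10 lower in model livers, with 3 at an unadjusted p under 0.05, all higher (13.6%, all genes 7.08%). Plau, the urokinase plasminogen activator, was at 4.79 to 5.62 in model and 0.73 to 4.06 in control arrays, a difference of 2.80 (SE 0.716; limma adjusted p 0.384). Its controls reach below the filter, so the size is not exact. F8, the cofactor of factor IX and a product of endothelium, differed by 0.84 (SE 0.337; limma adjusted p 0.401). Of 15 tested complement genes outside the 32, 5 were higher and 10 lower, with 1 higher (6.67%, all genes 7.08%) and 2 lower (13.3%, all genes 6.05%) at an unadjusted p under 0.05. Properdin (Cfp), which myeloid cells make to stabilize the alternative convertase, differed by 0.79 (SE 0.267; limma adjusted p 0.384), and the mitochondrial C1q-binding protein (C1qbp) by -1.08 (SE 0.406; limma adjusted p 0.395). In drug against model 0 of either list passed at an unadjusted p under 0.05, with medians of -0.16 for coagulation and 0.08 for complement.

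Lists of liver cell types and regulators, read in the same way, gave these values in model against control. Of 10 macrophage and Kupffer markers 4 had an unadjusted p under 0.05, all higher (40%, all genes 7.08%), with Ptprc, a marker of all leukocytes, at 1.46 and Cd163, a scavenger receptor of resident macrophages, at 1.25 (limma adjusted p 0.373 and 0.373). Macrophages also make complement proteins, and the part of this shift in the C1s, C5 or Cfp values was not tested. Of 11 genes of the interleukin-6 and acute-phase list 7 were higher and the median was 0.17; ceruloplasmin (Cp) stood at 0.50 and Lbp at 1.19. Of 10 hepatocyte transcription factors 5 were higher, with a median of 0.10, and the 2 with the smallest p were Foxa3 at -0.96 and Hnf4a at 0.46, neither under 0.05. Among hepatocyte markers these were the plasma proteins Ahsg at -0.41 and Apoh at -0.33. Endothelial markers had a median of -0.12, with Stab1 at 1.12 and Lyve1 at 0.76. Stellate cell and fibroblast markers had a median of -0.25, with the collagens Col1a2 at -0.77 and Col3a1 at 0.81. The 3 tested bile duct markers had a median of -0.54, with Epcam at -0.54 and Spp1 at -0.74.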

How the data were processed

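The deposited values are linear signal intensities, 1 per probe set and array. They were made with GCOS 1.2 from biotin-labelled total RNA, per the submitters' processing notes and the labels' protocols. No source used here states its settings or scaling. Of 31099 probe sets 57 controls were left out, which left 20826 with 1 symbol in the platform annotation, 436 with several and 9780 unnamed.

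Log2 signals were quantile normalized, which removes any difference in total signal, and 18625 probe sets at or above the 40th percentile of mean signal (2.82) were kept. All 9 arrays entered 1 fit in limma 3.58.1 (R 4.3.3) with a term for each group and an intensity trend, with two-sided tests and Benjamini-Hochberg adjustment over all probe sets kept. The labels do not say more on how replicates were made than that rats were drawn at random, so p-values measure the spread between these arrays. With 3 arrays a group an exact permutation test cannot go below 0.1. The fit was tested on simulated data for model against control with 18625 probe sets, where it recovered 4% of changes of 1, 54% of 2, 70% of 3 and 86% of 4 (log2). The simulated noise was independent between probe sets and arrays, and the changed probe sets were drawn from all those kept. These shares are therefore not those of the coagulation and complement genes.

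The genes and lists were chosen with earlier results of these data known, so the lists have no p of their own. A gene was given with all its values if its groups did not overlap at an unadjusted p under 0.05, or if it was among the 4 higher or 4 lower genes with the smallest p in model against control or drug against model, which took 12 genes. The other 20 were named within their role group after their values were seen. Alternatives changed the scaling, filter, offset, trend, probe set rule, arrays fitted and added terms (replicate block, Gapdh ratio). From each list of other genes the rule named the 2 with the smallest p in model against control. Promoters were read from a RefSeq table (GRCr8) by symbol.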

Additional observations from a re-analysis of the deposited data

How the results depend on the processing

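Over 22 alternatives, the 21 gene and comparison pairs taken by the naming rule gave 462 values, of which 456 kept their direction. None of these passed a limma adjusted p under 0.05 (lowest 0.0962). The pairs were picked partly for a small p, and other pairs of the same 12 genes could turn. F5 in drug against control, at 0.17 in the main fit, stood at -0.17 without drug 2. Without normalization, where the median of all genes was -0.43, the model difference turned to -0.30 for Klkb1, -0.077 for F5, -0.13 for C1s and -0.25 for C8a, and drug against control to -0.19 for Klkb1; C6 in drug against model ranged from -0.58 without model 3 to 1.06 without model 1. The median of the members in model against control was -0.54 without normalization, -0.21 with median centring and -0.030 with the mean of all probe sets of a gene, in drug against model it was 0.080 without normalization, and in drug against control -0.54 without normalization, -0.26 with median centring and -0.11 with the trimmed mean. Over all genes the drug against control median was -0.39 without normalization, -0.098 with median centring and 0.049 with the trimmed mean. Leaving out 1 array gave member medians of 0.05 to 0.17 in model against control. They were -0.16 to 0.01 in drug against model and -0.01 to 0.10 in drug against control. The cause was not tested.

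Probe sets past the adjusted threshold in model against control numbered 1 without normalization, 1 without control 1 and drug 1, 0 to 1 with 1 array left out, and 3 with the replicate block. In drug against model they numbered 1 with only the groups compared, 1 without control 1 and drug 1, and 0 to 1 with 1 array left out. In drug against control they were 0 throughout, with 1345 at an unadjusted p under 0.05. The labels do not say that replicate numbers pair the arrays. The deviations of the 9 same-numbered pairs correlated at 0.20 to 0.48 for number 1, -0.01 to 0.08 for number 2 and 0.06 to 0.18 for number 3, so that not every pair exceeded 0.1. Pairs with different numbers correlated at -0.37 to 0.32, and the highest of these was above every pair of number 2 and 3. With the replicate block 3633 probe sets had an unadjusted p under 0.05 in model against control in place of 2245. No gene of the 32 passed the adjusted threshold, but at an unadjusted p under 0.05 Masp1 and C6 were gained in model against control and Serpina4 was lost in drug against control. Dim genes lie outside the filter and are not covered.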

Other observations

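Some genes outside both cascades had means that differed between drug and model livers, not all without overlap, and no probe set passed the adjusted threshold. They were chosen after their values were seen. Nr0b2, the nuclear receptor SHP that represses bile acid synthesis, was at 5.10, 5.77 and 2.93 in control 1, 2 and 3, 5.50, 4.85 and 4.67 in model 1, 2 and 3, and 6.89, 6.29 and 7.65 in drug 1, 2 and 3. All drug arrays lay above the arrays of both other groups, with a drug against model difference of 1.93 (SE 0.652; limma adjusted p 0.998). Socs3, a feedback inhibitor of interleukin-6 signalling, was at 4.17, 4.37 and 3.64 in control 1, 2 and 3, 4.80, 4.25 and 3.62 in model 1, 2 and 3, and 3.90, 2.27 and -0.10 in drug 1, 2 and 3. Its difference of -2.20 (SE 0.854; limma adjusted p 0.998) went with a wide spread in the drug group. There drug 1 lay within the model range and drug 3 was the lowest array. Drug 2 and 3 reach below the filter, so the size is not exact. Of 9 endothelial markers 4 had all drug arrays below all model arrays, where 5.05% of all genes did, among them Lyve1, a hyaluronan receptor of liver sinusoids, at -1.24 and Gpr182 at -0.82.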
